A study of Mus musculus with 24 samples.

Results

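The enzymes of the pentose phosphate pathway, with the synthetases that turn its product into a nucleotide precursor, were followed through 4 sorted myeloid populations of the mouse colon, each taken from lamina propria (LP) and from tumours. The members were chosen by name: G6pdx, H6pd, Pgls and Pgd of the oxidative branch, Rpia, Rpe, Tkt and Taldo1 of the non-oxidative branch, and Prps1 and Prps2. All 10 were present among the 17301 genes with values, and 9 of the 10 passed the filter of a mean of at least 1 RPKM (reads divided by the length of the gene and the size of the library) in at least 1 group. Rpia did not pass and was described without a test.

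The populations were F4/80hi MHCIIhi macrophages, F4/80hi MHCIIlow macrophages (MHCIIhi and MHCIIlow below), Ly6Chi MHCII- monocytes and Ly6Ghi neutrophils. LP cells came from C57BL/6J mice and tumour cells from colon polyps of ApcMin/+ mice on the same background, which carry a germline Apc mutation in all cells and form intestinal adenomas. There were 24 libraries, 3 for each of the 8 groups, and tissue from 13 to 15 mice of both sexes was combined for a library. The mice with tumours had drunk dextran sodium sulphate (DSS) at an age of 6 to 8 weeks and were killed 4 weeks later, at 3 to 4 months. The methods describe DSS for the C57BL/6J mice too, at another concentration, whereas the labels call the LP healthy, so the treatment of the LP donors is not settled. Genotype, tumour and treatment cannot be told apart in any comparison of tumour with LP. Libraries carry the number of their donor pool (I to VII), and the numbers pair populations only within a tissue.

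The oxidative branch of the pathway takes glucose-6-phosphate to ribulose-5-phosphate and reduces NADP+ to NADPH on the way. The non-oxidative branch converts pentose phosphates to ribose-5-phosphate or returns their carbon to glycolysis. Ribose-5-phosphate is activated to phosphoribosyl pyrophosphate (PRPP), from which purine, pyrimidine and NAD nucleotides are built. In neutrophils and macrophages NADPH feeds the oxidase of the respiratory burst as well as glutathione and thioredoxin reductases.

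The libraries held 12838061 to 41718078 reads on genes, with a median of 26389148. The library sizes behind the deposited values were not the summed reads: they were 0.466 to 0.483 of them in tumour neutrophils, 0.630 to 0.682 in LP neutrophils and 0.981 to 1.51 in the other groups. Values of neutrophils relative to other cells therefore depend on this scaling. Their differences from monocytes and between tissues are given below under other scalings too. In bulk libraries fewer cells of a type and less RNA per cell cannot be told apart. The summed level of 5 neutrophil genes was 11100 to 26620 RPKM in neutrophils and at most 145.3 RPKM elsewhere, with Ly6g at or under 3 reads in every library of 3 of the 4 macrophage groups. The 2 monocyte genes summed to 124 to 204 RPKM in monocytes, 44.8 to 137 RPKM in neutrophils and at most 16.1 RPKM in macrophages. The 6 macrophage and MHCII genes summed to 13140 to 32460 RPKM in MHCIIhi macrophages, 2348 to 8872 RPKM in MHCIIlow macrophages and 877 to 3000 RPKM in monocytes and neutrophils. B and plasma cell genes summed to 358 to 1300 RPKM in LP neutrophils and at most 20.1 RPKM in tumour neutrophils, and 7 epithelial genes to 151 to 307 RPKM in tumour neutrophils against 12.7 to 62.2 RPKM in LP neutrophils. In monocytes the B and plasma cell genes summed to 157 to 576 RPKM in LP and at most 4.68 RPKM in tumours. The epithelial genes summed to 19.4 to 212 RPKM in LP and 104 to 316 RPKM in tumour monocytes, and to 12.6 to 193 RPKM in tumour against 18.2 to 23.3 RPKM in LP MHCIIlow macrophages. In macrophages 5 fibroblast genes summed to 18.3 to 51.7 RPKM in LP and 0.318 to 0.644 RPKM in tumour MHCIIlow cells, and to 6.43 to 19.1 RPKM in LP and 0.177 to 1.17 RPKM in tumour MHCIIhi cells. The 4 dendritic cell genes summed to 9.99 to 14.1 RPKM in LP and 0.0279 to 1.28 RPKM in tumour MHCIIhi cells, and to 3.59 to 8.47 RPKM in LP and 0.447 to 1.20 RPKM in tumour MHCIIlow cells. The part of these other cells in the results below was not tested. Whether the libraries of 2 groups overlapped is given below as a description. No exact rank test of 3 libraries against 3 can give a p under 0.1, and the share of all genes without overlap was not counted.

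In the deposited values tumour neutrophils held the highest levels of 4 members, G6pdx, Pgd, Tkt and Taldo1, in every library. The RPKM of all 10 members summed to 1412, 1437 and 1550 in the tumour neutrophil libraries and 721 to 803 in LP neutrophils. In the other 6 groups the sum lay between 238 and 539.9 RPKM. The library sizes behind these values were 0.466 to 0.483 of the reads in tumour neutrophils and 1.31 to 1.51 in tumour MHCIIlow macrophages. The sums, and the order of neutrophils among the groups here and below, therefore depend on that scaling. Levels of neutrophils were not compared with those of macrophages under other scalings. Taldo1 was the largest part of the sum in all 24 libraries, from 30.8% in a tumour MHCIIhi library to 73.3% in an LP neutrophil library. Rpia made up at most 0.185% in any library. A moderated F test over the 8 groups passed for all 9 tested members (adjusted p from 1.16e-10 for Taldo1 to 0.00017 for Rpe), where 88.2% of the 12878 genes tested passed it.

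**Figure D1:**
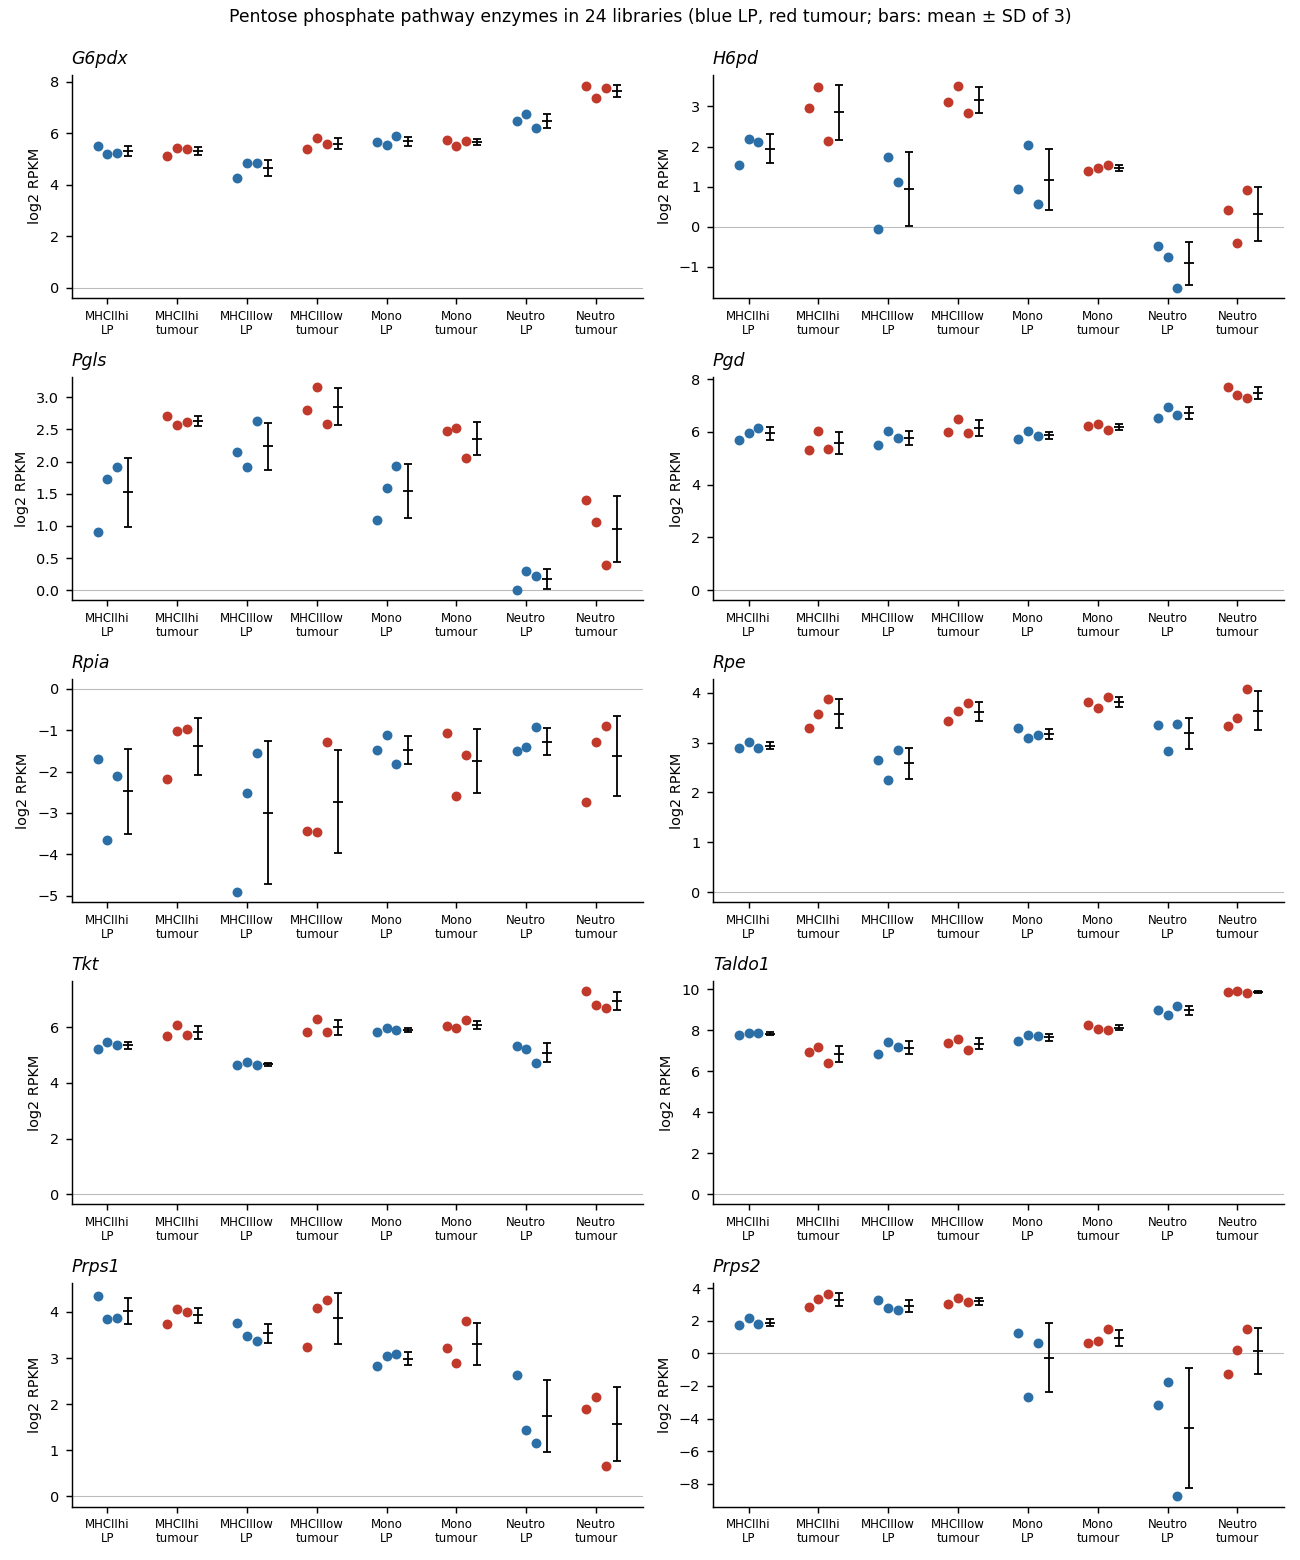
Level (log2 RPKM, vertical axes with their own ranges) of each enzyme in the 24 libraries, with blue points for LP, red points for tumour and black bars for the mean ± SD of 3 libraries. In these deposited values the 3 tumour neutrophil libraries lie above all others for G6pdx, Pgd, Tkt and Taldo1, an order that depends on the scaling of libraries. Prps1 and Pgls are low in neutrophils, and the lowest Prps2 point is an LP neutrophil library with 0 reads.

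G6pdx encodes the cytosolic glucose-6-phosphate dehydrogenase that opens the oxidative branch and sets its pace. Its level was 226, 164 and 215 RPKM in tumour neutrophils and 90.0, 108 and 73.3 RPKM in LP neutrophils. The 2 groups did not overlap, and both lay above all other groups in the deposited scaling. G6pdx was 2.24-fold higher in tumour than in LP neutrophils (log2 fold change 1.16 ± 0.18 SE, adjusted p = 5.75e-05), and passed under every alternative tried (adjusted p from 1.02e-05 to 0.0156). In MHCIIlow macrophages it measured 41.6, 56.9 and 48.5 RPKM in tumours against 19.5, 28.8 and 28.7 RPKM in LP, again without overlap. That was a 1.93-fold rise (0.94 ± 0.18, adjusted p = 5.68e-04). In MHCIIhi macrophages the values overlapped, at 35.2, 43.2 and 42.5 RPKM in tumours and 45.9, 36.7 and 37.4 RPKM in LP, with a log2 difference of 0.01 ± 0.18. Monocytes also overlapped, at 53.7, 45.8 and 52.6 RPKM in tumours and 50.1, 47.3 and 59.7 RPKM in LP. In descending order of mean, tumour neutrophils were apart from LP neutrophils and these from LP monocytes, while LP monocytes, tumour monocytes, tumour MHCIIlow, tumour MHCIIhi and LP MHCIIhi macrophages each overlapped their neighbour, and LP MHCIIlow macrophages were apart at the bottom. Of the exon bases of G6pdx (GRCm38, chrX:74409483-74429194, minus strand), 13.6% overlap Ikbkg on the opposite strand, and the libraries do not keep strand. Of its 51-base stretches 16.6% occur in Ikbkg or in G6pd2, a near copy not used here. Ikbkg overlapped between tumour and LP neutrophils and was lower in tumour MHCIIlow macrophages, at 9.66 to 14.5 RPKM in tumour against 10.9 to 15.9 RPKM in LP neutrophils and 5.46 to 7.90 RPKM in tumour against 10.6 to 12.6 RPKM in LP MHCIIlow macrophages.

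H6pd encodes the enzyme of the endoplasmic reticulum that carries out the first steps of the oxidative branch there and supplies NADPH to the lumen. It was highest in tumour macrophages, with 8.64, 11.3 and 7.20 RPKM in MHCIIlow and 7.83, 11.2 and 4.37 RPKM in MHCIIhi cells. LP MHCIIlow macrophages held 0.959, 3.36 and 2.17 RPKM, all under the tumour values, and the 4.65-fold difference passed the test (2.22 ± 0.48, adjusted p = 0.00183). LP MHCIIhi macrophages held 2.90, 4.57 and 4.31 RPKM and overlapped their tumour counterparts, so that the difference of 0.91 ± 0.48 had an adjusted p of 0.206. Over both macrophage subsets together H6pd was 2.96-fold higher in tumours (adjusted p = 0.00118). Neutrophils were lowest, at 1.35, 0.752 and 1.89 RPKM in tumours and 0.721, 0.599 and 0.349 RPKM in LP, which rest on 32 to 90 reads a library. These did not overlap, with a difference of 1.22 ± 0.48 and an adjusted p of 0.0560. G6pdx exceeded H6pd in every library, by 3.88 to 20.3-fold in macrophages, 11.6 to 40.4-fold in monocytes and 113.6 to 218.5-fold in neutrophils. The library size does not touch this ratio within a library.

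Pgls encodes the lactonase of the second step. It measured 6.55, 5.97 and 6.10 RPKM in tumour against 1.88, 3.32 and 3.78 RPKM in LP MHCIIhi macrophages. The groups did not overlap and differed 2.16-fold (1.11 ± 0.31, adjusted p = 0.0139). Without LP library III the difference was 0.81 with an adjusted p of 0.0980. In MHCIIlow macrophages Pgls was 7.002, 8.96 and 6.02 RPKM in tumours and 4.44, 3.78 and 6.23 RPKM in LP, with some overlap (0.62 ± 0.31, adjusted p = 0.164). Differences in monocytes (0.82 ± 0.31, adjusted p = 0.108) and neutrophils (0.78 ± 0.31, adjusted p = 0.0573) had the same sign but did not pass, although neither pair of groups overlapped. Pgls was lowest in neutrophils, at 1.00 to 1.23 RPKM in LP and 1.32 to 2.66 RPKM in tumours. Of its exon bases (GRCm38, chr8:71592176-71601092, plus strand) 20.6% overlap Fam129c on the same strand, and Fam129c did not exceed 0.853 RPKM in any macrophage library. In LP neutrophils it was 0.356 to 1.18 RPKM, close to Pgls there, and in tumour neutrophils it had 0 reads.

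Pgd encodes 6-phosphogluconate dehydrogenase, which yields the second NADPH of the branch. It measured 209.8, 170.2 and 158 RPKM in tumour neutrophils and 92.9, 125 and 100.3 RPKM in LP neutrophils, without overlap. The difference was 1.70-fold (0.76 ± 0.20, adjusted p = 0.00598), but with library sizes as summed reads it was 0.29 with an adjusted p of 0.261, and after quantile normalization 0.43 with an adjusted p of 0.138. The other 6 groups lay between 40.0 and 89.4 RPKM, and each overlapped its neighbour in the order of means. No difference of Pgd between tumour and LP passed in macrophages or monocytes (adjusted p from 0.179 to 0.972). Without tumour library V, whose 66.1 RPKM stood above 40.0 and 41.3 RPKM, Pgd was lower in tumour MHCIIhi macrophages (-0.60, adjusted p = 0.0378). Pgd over G6pdx was 0.736 to 1.04 in tumour neutrophils and 1.88 to 2.31 in LP MHCIIlow macrophages, the lowest and the highest groups by median.

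Tkt encodes transketolase, which moves units of 2 carbons between sugar phosphates in the non-oxidative branch. It measured 158, 112 and 104 RPKM in tumour neutrophils and 40.1, 37.7 and 26.2 RPKM in LP neutrophils. In the deposited scaling the tumour libraries were the 3 highest of all 24, and the LP libraries overlapped both LP macrophage groups. The difference was 3.59-fold (1.84 ± 0.17, adjusted p = 3.06e-07), and adjusted p ranged from 1.39e-07 to 0.00752 over the alternatives. Tkt was also 2.50-fold higher in tumour MHCIIlow macrophages, where 57.3, 79.0 and 57.4 RPKM faced 24.9, 26.8 and 25.0 RPKM in LP (1.32 ± 0.17, adjusted p = 1.33e-05). In MHCIIhi macrophages 51.2, 68.4 and 52.1 RPKM faced 37.2, 44.2 and 41.2 RPKM without overlap, and the difference of 0.48 ± 0.17 had an adjusted p of 0.0633, with adjusted p under 0.05 in 5 of 11 other settings. Monocytes held 66.4, 62.9 and 75.8 RPKM in tumours and 57.1, 62.1 and 60.0 RPKM in LP, barely apart (0.19 ± 0.17, adjusted p = 0.590). No stretch of 51 bases of Tkt was shared with another annotated gene.

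Taldo1 encodes transaldolase, which moves units of 3 carbons and, with transketolase, links the pentoses to glycolysis. Of the 9 tested members it was the only one to pass as lower in tumour macrophages in the fit of all libraries. LP MHCIIhi macrophages held 219.9, 236 and 236 RPKM and their tumour counterparts 125, 146 and 84.7 RPKM, without overlap, which was a 1.99-fold lower level (-0.995 ± 0.19, adjusted p = 7.23e-04). MHCIIlow macrophages overlapped, with 114, 175 and 147 RPKM in LP and 168, 193 and 134 RPKM in tumours (0.19 ± 0.19, adjusted p = 0.531). Neutrophils held 509, 438 and 588 RPKM in LP and 938, 969.8 and 910.1 RPKM in tumours, a 1.85-fold rise (0.89 ± 0.19, adjusted p = 0.00123). In the deposited scaling tumour neutrophils, LP neutrophils and tumour monocytes (311, 273 and 263 RPKM) were apart from each other and from all lower groups. Of 51-base stretches of Taldo1, 6.35% also occur in the annotated gene Gm17823, which was not used here.

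The ratio of Taldo1 to Tkt, which does not depend on the library size, separated LP from tumour in both macrophage subsets. It was 5.33 to 5.91 in LP and 1.62 to 2.45 in tumour MHCIIhi macrophages, and 4.58 to 6.54 in LP and 2.34 to 2.93 in tumour MHCIIlow macrophages. In neutrophils it was 11.6 to 22.4 in LP and 5.95 to 8.77 in tumours, also without overlap. Monocytes went the other way with overlap, at 3.09 to 3.59 in LP and 3.47 to 4.68 in tumours. As a share of the 10 summed levels, Tkt made up 17.2% to 19.0% in tumour MHCIIhi macrophages and 9.52% to 10.7% in LP MHCIIhi macrophages, and 3.27% to 5.34% in LP neutrophils. These ratios come from the same values as the tests above and are given without a test.

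**Figure D2:**
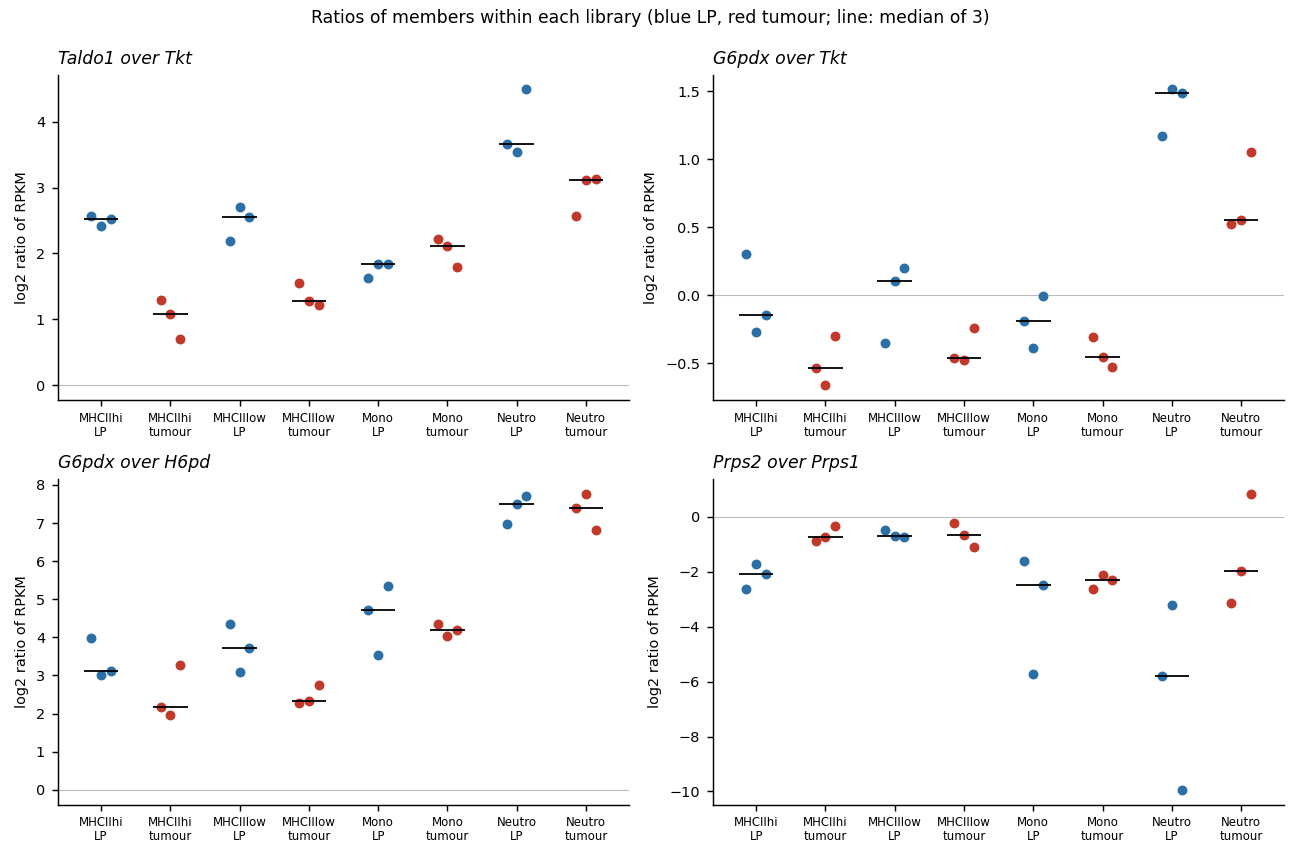
Log2 ratio of the RPKM of pairs of enzymes within each of the 24 libraries (blue LP, red tumour, line at the median of 3 libraries), which the library size does not change. Taldo1 over Tkt is lower in all tumour than in all LP libraries of both macrophage subsets and of neutrophils. The log2 ratio of G6pdx over H6pd is 6.83 or more in all 6 neutrophil libraries and at most 5.34 in the rest.

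Rpe encodes ribulose-5-phosphate epimerase, which feeds transketolase with xylulose-5-phosphate. It was 9.77, 11.97 and 14.6 RPKM in tumour and 7.44, 8.09 and 7.43 RPKM in LP MHCIIhi macrophages, a 1.56-fold difference without overlap (0.65 ± 0.20, adjusted p = 0.0307). This call was lost without LP library III, IV or V or tumour library V or VII (adjusted p from 0.0572 to 0.153). In MHCIIlow macrophages 10.8, 12.5 and 13.9 RPKM in tumours faced 6.26, 4.76 and 7.27 RPKM in LP (1.04 ± 0.20, 2.05-fold, adjusted p = 8.52e-04). In monocytes 14.1, 13.03 and 15.1 RPKM faced 9.75, 8.57 and 8.87 RPKM without overlap, with a difference of 0.63 ± 0.20 and an adjusted p of 0.0584, which was under 0.05 in 7 of 11 other settings. Neutrophils overlapped (0.45 ± 0.20, adjusted p = 0.101). Of the exon bases of Rpe (GRCm38, chr1:66700831-66719805, plus strand) 17.9% overlap Kansl1l on the opposite strand. Kansl1l was 1.09 to 1.51 RPKM in tumour and 1.19 to 1.56 RPKM in LP MHCIIhi macrophages, and lower in tumour (0.972 to 1.10 RPKM) than in LP MHCIIlow macrophages (2.53 to 4.21 RPKM). In neutrophils it was 4.43 to 7.42 RPKM in LP and 6.58 to 8.27 RPKM in tumours, where Rpe was 7.13 to 16.9 RPKM. In LP MHCIIlow macrophages Rpe, at 4.76 to 7.27 RPKM, was likewise not far above Kansl1l.

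Rpia encodes ribose-5-phosphate isomerase, which makes ribose-5-phosphate from the product of the oxidative branch. It was detected in every library, by 7 to 117 reads, but never exceeded 0.537 RPKM. Its group means lay between 0.182 RPKM in LP MHCIIlow macrophages and 0.421 RPKM in LP neutrophils, and each group overlapped its neighbour in the order of means. In the deposited scaling LP neutrophils, at 0.353 to 0.532 RPKM, lay above LP MHCIIhi (0.0797 to 0.310 RPKM) and LP MHCIIlow macrophages (0.0331 to 0.339 RPKM) without overlap. These values rest on 7 to 68 reads a library and depend on the scaling, which was not varied for Rpia, and no difference of Rpia was tested.

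Prps1 and Prps2 encode the 2 widely expressed PRPP synthetases. Prps1 was 20.4, 14.3 and 14.6 RPKM in LP and 13.4, 16.7 and 15.9 RPKM in tumour MHCIIhi macrophages, and 13.6, 11.1 and 10.4 RPKM in LP and 9.43, 17.0 and 19.1 RPKM in tumour MHCIIlow macrophages. Neutrophils held 6.16, 2.69 and 2.25 RPKM in LP and 3.70, 4.44 and 1.57 RPKM in tumours, below every library of the other 6 groups. No difference of Prps1 between tumour and LP passed (log2 difference from -0.18 to 0.32, adjusted p from 0.602 to 0.919). Of its 51-base stretches 9.57% occur in Prps1l3, a near copy whose own level was 12.98 to 13.8 RPKM in LP MHCIIhi macrophages and 0.291 to 2.85 RPKM in neutrophils, so the reads of both are uncertain.

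Prps2 was nearly absent from LP neutrophils, where it had 10, 15 and 0 reads (0.110, 0.291 and at most the level of 3 reads), and reached 0.416, 1.14 and 2.83 RPKM in tumour neutrophils on 20 to 84 reads. The groups did not overlap and the test passed (adjusted p = 0.00517), but the fitted difference of 4.72 ± 1.20 rests in part on the library at 0 reads, and the adjusted p was 0.173 in a fit of only the libraries compared and 0.0507 with voom on the recovered reads. In MHCIIhi macrophages Prps2 was 7.29, 10.1 and 12.7 RPKM in tumours and 3.31, 4.40 and 3.41 RPKM in LP, without overlap (1.41 ± 1.20, adjusted p = 0.482). The SE of Prps2 is shared by all groups and is set largely by its low libraries. With voom, which weights each value by its reads, the same difference was 1.40 with an adjusted p of 0.00768. In MHCIIlow macrophages 8.07, 10.7 and 8.86 RPKM overlapped 9.75, 6.79 and 6.25 RPKM (0.30 ± 1.20). Prps2 over Prps1 within a library was 0.162 to 0.307 in LP MHCIIhi macrophages and 0.463 to 0.856 in the other 3 macrophage groups, and 1.80 in tumour neutrophil library V, the only library with more Prps2 than Prps1.

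**Figure D3:**
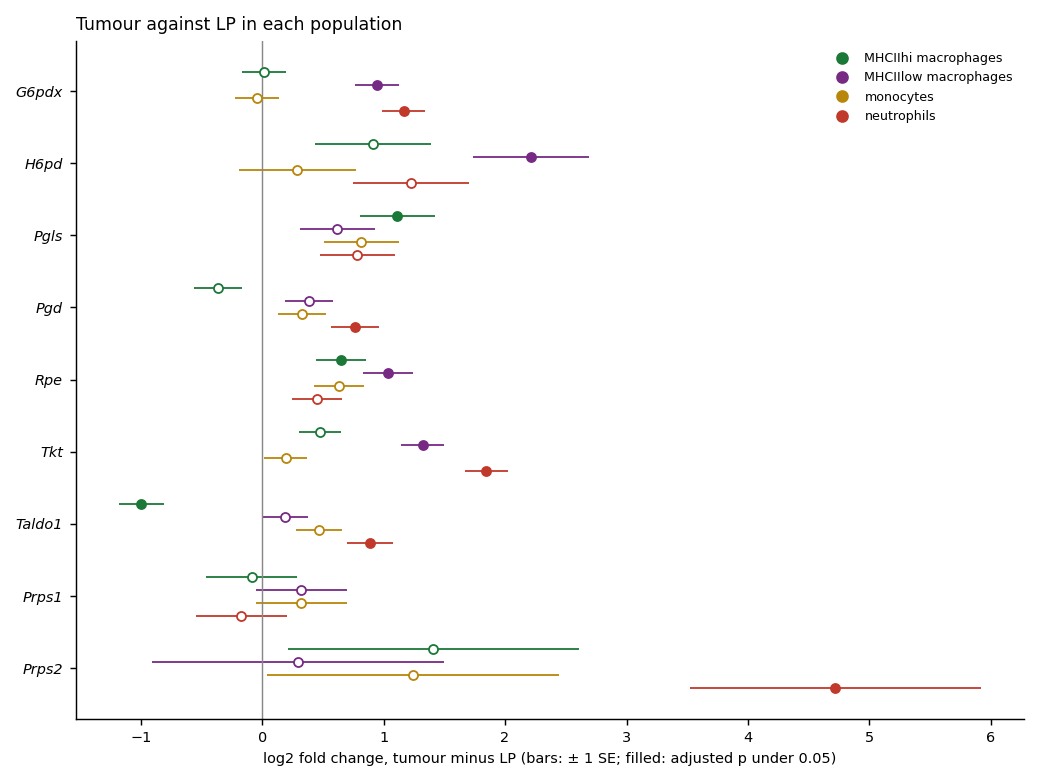
Log2 fold change (tumour minus LP, horizontal axis) of the 9 tested enzymes in MHCIIhi macrophages, MHCIIlow macrophages, monocytes and neutrophils, with bars of 1 SE and filled points where the adjusted p was under 0.05. G6pdx and Tkt are filled in MHCIIlow macrophages and neutrophils, Taldo1 lies at -0.995 in MHCIIhi macrophages and 0.89 in neutrophils, and no point of the monocytes is filled.

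Counted over the 9 tested members, tumour against LP gave 3 calls in MHCIIhi macrophages (Pgls and Rpe higher, Taldo1 lower) where 19.5% of all genes passed. In MHCIIlow macrophages it gave 4 calls, all higher (G6pdx, H6pd, Rpe and Tkt), where 23.3% of genes passed. In both macrophage subsets together there were 6 calls, with G6pdx, H6pd, Pgls, Rpe and Tkt higher and Taldo1 lower, beside 33.8% of genes. The lower Taldo1 of that pooled comparison (-0.40 ± 0.13, adjusted p = 0.0238) was lost without LP MHCIIlow library III, tumour MHCIIhi library VII or tumour MHCIIlow library VII (adjusted p from 0.0707 to 0.0759). In neutrophils 5 members were called, all higher (G6pdx, Pgd, Tkt, Taldo1 and Prps2), where 32.2% of genes passed. In monocytes limma called 0 of 9 members, with 3 at an unadjusted p under 0.05, and 9.29% of genes passed. The median log2 difference of the members was 0.48 in MHCIIhi macrophages, 0.62 in MHCIIlow macrophages, 0.33 in monocytes and 0.89 in neutrophils, while that of all genes lay between -0.12 and 0.06.

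The 4 members that rose in tumour neutrophils with their groups fully apart and high levels are shown by their promoters, and were chosen after their values were seen. The rise of Pgd was lost with summed reads and quantile normalization. Elsewhere the 4 did not all move together: in tumour against LP MHCIIhi macrophages Taldo1 differed by -0.995 and Tkt by 0.48. The RefSeq sequences run from 250 bases before to 50 bases after the start of transcription, 300 bases each, 5′ to 3′ on the strand of the gene in GRCm38.p6. Capitals mark a match to TGACNNNGC, the core of the antioxidant response element at which the transcription factor NRF2 (Nfe2l2) binds, searched on both strands. The windows were chrX:74428831-74429130 on the minus strand for G6pdx, chr4:149166656-149166955 on the minus strand for Pgd, chr14:30548881-30549180 on the plus strand for Tkt and chr7:141391910-141392209 on the plus strand for Taldo1.
G6pdx: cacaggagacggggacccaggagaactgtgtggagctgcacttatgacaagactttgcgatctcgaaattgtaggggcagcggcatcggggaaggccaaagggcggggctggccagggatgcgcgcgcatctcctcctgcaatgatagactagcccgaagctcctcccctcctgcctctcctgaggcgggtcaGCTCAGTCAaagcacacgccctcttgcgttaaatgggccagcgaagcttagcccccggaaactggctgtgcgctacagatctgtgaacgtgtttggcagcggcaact
Pgd: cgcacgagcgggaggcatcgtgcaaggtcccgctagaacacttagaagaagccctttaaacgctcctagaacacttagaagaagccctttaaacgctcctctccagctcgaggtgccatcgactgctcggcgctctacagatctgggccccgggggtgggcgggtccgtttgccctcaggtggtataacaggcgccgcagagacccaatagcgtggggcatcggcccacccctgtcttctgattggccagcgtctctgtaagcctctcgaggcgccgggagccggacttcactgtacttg
Tkt: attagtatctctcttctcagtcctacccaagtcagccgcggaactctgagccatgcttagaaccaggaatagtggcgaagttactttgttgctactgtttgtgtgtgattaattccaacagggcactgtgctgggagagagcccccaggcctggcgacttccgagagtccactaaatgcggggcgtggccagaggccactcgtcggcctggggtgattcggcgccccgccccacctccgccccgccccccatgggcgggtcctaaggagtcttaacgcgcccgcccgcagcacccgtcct
Taldo1: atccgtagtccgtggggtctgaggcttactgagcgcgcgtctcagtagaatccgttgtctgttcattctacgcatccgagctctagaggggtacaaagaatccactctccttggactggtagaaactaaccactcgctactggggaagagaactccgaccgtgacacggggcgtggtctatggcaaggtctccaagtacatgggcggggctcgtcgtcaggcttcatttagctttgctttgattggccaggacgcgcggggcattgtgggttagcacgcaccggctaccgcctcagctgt
All 10 members were matched to a RefSeq promoter. G6pdx had 1 match, on the opposite strand and 57 bases before the start, and a second annotated start of Pgd had another, so that 2 of 10 members held the core where 13.99% of 27025 genes did. The E-box core CACGTG, a palindrome bound by MYC among others, was in none of the 10 and in 8.09% of genes. A match is a stretch of letters and not a shown binding site, and its absence from these windows tells nothing of the factor.

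MHCIIlow and MHCIIhi macrophages of the same tissue were compared for the same enzymes. In LP 3 members were lower in MHCIIlow cells, G6pdx (-0.66 ± 0.18, 1.58-fold, adjusted p = 0.0278), Tkt (-0.68 ± 0.17, adjusted p = 0.0209) and Taldo1 (-0.69 ± 0.19, adjusted p = 0.0281), where 7.70% of genes passed. As a description of the same values, none of the 3 pairs of groups overlapped, and the share of all genes without overlap was not counted. With the pool number as a fixed block the adjusted p was 0.130, 0.0637 and 0.0960 in that order. All 3 calls were lost without LP MHCIIhi library IV or V or LP MHCIIlow library II, those of G6pdx and Taldo1 also without LP MHCIIhi III, and those of Tkt and Taldo1 also without LP MHCIIlow IV (adjusted p from 0.0535 to 0.159). In tumours limma called 0 of 9 members, with 2 at an unadjusted p under 0.05, beside 1.13% of genes. Pgd passed there without tumour MHCIIhi library V (0.80, adjusted p = 0.0487). The tumour effect itself differed between the subsets for 1 member, Taldo1, where it was 1.18 ± 0.27 more positive in MHCIIlow cells (adjusted p = 0.0299, with 1.46% of genes passing). Without 7 of the 12 macrophage libraries in turn this call was lost (LP MHCIIhi III, IV and V, LP MHCIIlow II, tumour MHCIIhi VII and tumour MHCIIlow I and V, adjusted p from 0.0525 to 0.0921). G6pdx had a difference of tumour effects of 0.93 ± 0.25 with an adjusted p of 0.0709, which was under 0.05 in 4 of 12 other settings and without LP MHCIIlow library III, so that its tumour effect was not shown to differ between the subsets in the fit of all libraries.

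Monocytes, which give rise to part of the macrophages of the gut, served as a common base for 6 further comparisons that share their libraries within a tissue. In LP MHCIIhi macrophages only Tkt was called, lower than in monocytes (-0.55 ± 0.17, adjusted p = 0.0313, beside 20.1% of genes), and it was lost in 5 of 6 fits that left out a library, all but that without LP MHCIIhi library IV. Quantile normalization lost that call too (-0.39, adjusted p = 0.0941). LP MHCIIlow macrophages were lower in 4 members, G6pdx (-1.05 ± 0.18, adjusted p = 1.61e-04), Tkt (-1.225 ± 0.17, adjusted p = 2.21e-05), Rpe (-0.59 ± 0.20, adjusted p = 0.0345) and Taldo1 (-0.51 ± 0.19, adjusted p = 0.0480), beside 29.5% of genes. Rpe and Taldo1 were lost with the pool number as a fixed block (adjusted p = 0.0648 and 0.193) and without most single libraries, Rpe without any but LP MHCIIlow IV and Taldo1 without LP MHCIIlow II or IV or LP monocyte IV or V. Both were also lost with summed reads (adjusted p = 0.256 and 0.239) and in a fit of only the libraries compared (adjusted p = 0.0716 and 0.1145). Taldo1 was lost as well after quantile normalization (-0.15, adjusted p = 0.551) and with no filter (adjusted p = 0.0530). Pgls, at 0.70 ± 0.31 in this comparison (adjusted p = 0.0988), passed only with the block (0.88, adjusted p = 0.0494) and with summed reads (0.94, adjusted p = 0.0228). Tumour MHCIIhi macrophages held more H6pd (1.39 ± 0.48, adjusted p = 0.0304), less Pgd (-0.62 ± 0.20, adjusted p = 0.0213) and less Taldo1 (-1.28 ± 0.19, adjusted p = 1.94e-05), beside 32.1% of genes. The call of H6pd failed without any library but tumour MHCIIhi VII (adjusted p from 0.0596 to 0.138) and with libraries centred on their median (adjusted p = 0.0539). That of Pgd failed without tumour MHCIIhi I or VII or tumour monocyte I or II and with the fixed block (adjusted p = 0.0934). Pgd was also lost with summed reads (-0.34, adjusted p = 0.192) and after quantile normalization (-0.31, adjusted p = 0.260). A fit of only the libraries compared lost it too (adjusted p = 0.0871). Tumour MHCIIlow macrophages held more H6pd (1.69 ± 0.48, 3.22-fold, adjusted p = 0.00984) and less Taldo1 (-0.79 ± 0.19, adjusted p = 0.00288), beside 32.0% of genes. That call of Taldo1 was lost with summed reads (-0.38, adjusted p = 0.0802) and after quantile normalization (-0.23, adjusted p = 0.321).

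Neutrophils differed from monocytes in most members. In LP, G6pdx (0.78 ± 0.18), Pgd (0.85 ± 0.20) and Taldo1 (1.32 ± 0.19) were higher and H6pd (-2.08 ± 0.48), Pgls (-1.37 ± 0.31), Tkt (-0.81 ± 0.17), Prps1 (-1.25 ± 0.38) and Prps2 (-4.30 ± 1.20) lower, 8 of 9 in all, beside 54.5% of genes. Adjusted p ran from 6.73e-06 for Taldo1 to 0.00834 for Prps1, and Prps1 was lost without LP neutrophil library V (adjusted p = 0.0531). LP neutrophils and monocytes overlapped for Prps2, whose difference rests in part on the library at 0 reads and ran from -5.69 to -0.92 over the alternatives, and whose call was lost in a fit of only the libraries compared (adjusted p = 0.137). In tumours G6pdx (1.98 ± 0.18, 3.95-fold, adjusted p = 1.27e-08), Pgd (1.28 ± 0.20), Tkt (0.84 ± 0.17) and Taldo1 (1.74 ± 0.19) were higher and H6pd (-1.15 ± 0.48), Pgls (-1.40 ± 0.31) and Prps1 (-1.74 ± 0.38) lower, 7 of 9, beside 58.1% of genes. H6pd passed narrowly (adjusted p = 0.0452) and failed without any library but tumour neutrophil V. That call was also lost in 6 of 12 other settings (adjusted p from 0.0527 to 0.346). Among these were libraries centred on their median (-0.70, adjusted p = 0.229), quantile normalization (-0.60, adjusted p = 0.346) and voom on the recovered reads (-1.13, adjusted p = 0.229). Tkt of tumour neutrophils stood above monocytes in the deposited scaling but not with summed reads or quantile normalization (-0.29 and -0.04), while Tkt of LP neutrophils stood below monocytes under every alternative.

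Prps2 was higher in macrophages than in monocytes in each of the 4 comparisons, without overlap, by 2.16, 3.18, 2.33 and 2.23 in LP MHCIIhi, LP MHCIIlow, tumour MHCIIhi and tumour MHCIIlow cells, each ± 1.20. None passed in the fit of all groups (adjusted p from 0.0524 to 0.230), and all 4 passed with voom on the recovered reads (adjusted p from 1.94e-04 to 0.00684).

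The scaling of libraries decided several of these neutrophil results. Quantile normalization is counted as a scaling here, though it also changes levels relative to each other within a library. With library sizes as summed reads the median of all genes moved by -0.81 in the LP comparison, by -1.09 in the tumour comparison and by -0.45 between tumour and LP neutrophils. Measured against the median of all genes under each scaling, G6pdx in tumour neutrophils was 2.34 above monocytes with libraries centred on their median, 2.299 above with summed reads and 1.09 above after quantile normalization. In absolute terms the summed reads put G6pdx of LP neutrophils against monocytes at -0.05 (adjusted p = 0.845), Pgd there at 0.03 (adjusted p = 0.926), Pgd of tumour neutrophils at 0.15 (adjusted p = 0.533) and Tkt of tumour neutrophils at -0.29 (adjusted p = 0.145). Quantile normalization left G6pdx of LP neutrophils at 0.15 (adjusted p = 0.549) and Pgd at 0.16 in LP (adjusted p = 0.535) and 0.25 in tumours (adjusted p = 0.314). It left Taldo1 at 0.13 in LP (adjusted p = 0.558) and 0.31 in tumours (adjusted p = 0.143), and Tkt of tumour neutrophils at -0.04. Of the 5 calls between tumour and LP neutrophils, those of G6pdx (0.70 to 1.41), Tkt (1.38 to 2.09), Taldo1 (0.42 to 1.13) and Prps2 (4.01 to 4.96) passed under all 3 of these scalings. With median centring Pgls (1.03, adjusted p = 0.0142), H6pd (1.47, adjusted p = 0.0254) and Rpe (0.69, adjusted p = 0.0128) passed as well. Pgls (adjusted p = 0.0411) and H6pd (adjusted p = 0.0451) also passed after quantile normalization. With summed reads Pgls (0.32, adjusted p = 0.435), H6pd (0.76, adjusted p = 0.220) and Rpe (-0.02, adjusted p = 0.970) did not.

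**Figure D4:**
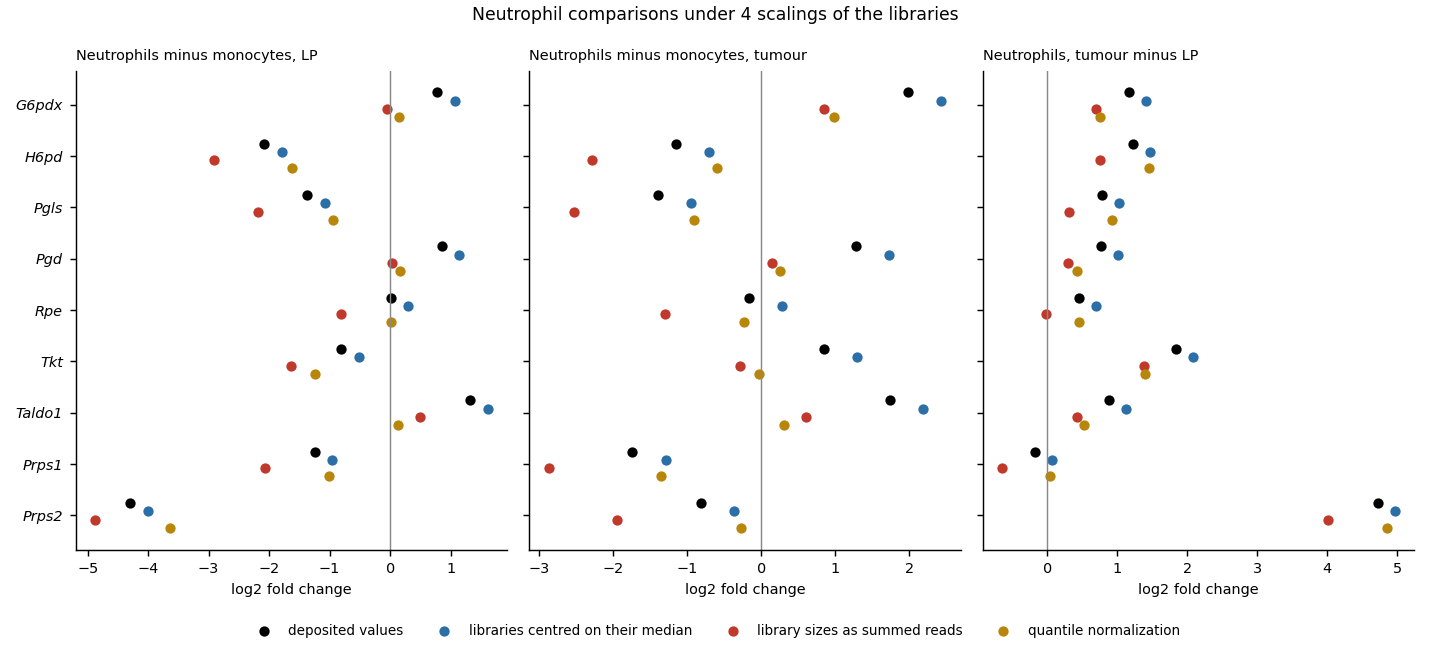
Log2 fold change (horizontal axes with their own ranges) of the 9 tested enzymes in 3 comparisons of neutrophils, with the deposited values in black, libraries centred on their median in blue, library sizes as summed reads in red and quantile normalization in yellow. Tkt against monocytes changes sign in tumours, from 0.84 as deposited to -0.29 with summed reads, whereas G6pdx stays between 0.85 and 2.43 there and between 0.70 and 1.41 in tumour against LP neutrophils.

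The tumour effect in macrophages was set against that in neutrophils and monocytes. Both macrophage subsets together had a lower tumour effect than neutrophils for G6pdx (-0.69 ± 0.22, adjusted p = 0.0257), Pgd (-0.75 ± 0.24, adjusted p = 0.0276), Tkt (-0.95 ± 0.21, adjusted p = 0.00288) and Taldo1 (-1.29 ± 0.23, adjusted p = 3.60e-04), beside 26.0% of genes. G6pdx was lost without LP neutrophil V or tumour neutrophil I or V (adjusted p from 0.0622 to 0.0895), and Pgd without LP neutrophil III or V or tumour neutrophil I (adjusted p from 0.0604 to 0.0796) and with the fixed block (adjusted p = 0.0636). With summed reads or quantile normalization only that of Taldo1 among these 4 passed (adjusted p up to 0.00658 over all its alternatives). Against monocytes the tumour effect was higher in macrophages for Tkt (0.71 ± 0.21, adjusted p = 0.0429) and lower for Taldo1 (-0.87 ± 0.23, adjusted p = 0.0192), beside 9.19% of genes. Among the fits that left out a library, Tkt passed without LP MHCIIhi IV, LP MHCIIlow III, tumour MHCIIhi I or VII, tumour MHCIIlow I or VII or tumour monocyte V. It was lost without the other 11 of 18 libraries (adjusted p from 0.0584 to 0.112) and with the fixed block (adjusted p = 0.0915). Median centring (0.56, adjusted p = 0.127) and no filter (adjusted p = 0.0560) lost it too. Taldo1 was lost without LP monocyte III or tumour monocyte I (adjusted p = 0.0695 and 0.0631).

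Genes around the pathway were counted in the same fits of tumour against LP, in which 19.5% of all genes passed for MHCIIhi macrophages, 23.3% for MHCIIlow macrophages, 9.29% for monocytes and 32.2% for neutrophils. Of 13 linked pentose and ribose genes 9 had values and 8 were tested. In tumour MHCIIlow macrophages 3 of these rose, Pgm1 (2.23 ± 0.31), Dera and Prpsap1, and 1 fell, Pgm2 (-0.71 ± 0.17, adjusted p = 0.00454). Dera, the aldolase of deoxyribose phosphate, rose by 1.42 ± 0.33 (adjusted p = 0.00306). In tumour neutrophils Prpsap1, a partner protein of the PRPP synthetases, rose by 0.68 ± 0.15 (adjusted p = 0.00151), and Prps1l3 (-1.88 ± 0.40) and Prpsap2 (-0.91 ± 0.32) fell. The median was 0.50 in MHCIIlow macrophages and -0.004 in neutrophils.

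Other sources of NADPH numbered 10 tested of 12. Idh1, the cytosolic isocitrate dehydrogenase, rose in tumour MHCIIhi macrophages (1.33 ± 0.29, adjusted p = 0.00284), in monocytes (1.27 ± 0.29, adjusted p = 0.00849) and in neutrophils (1.25 ± 0.29, adjusted p = 0.00298). Mthfd2 of mitochondrial folate metabolism fell in tumour MHCIIhi macrophages (-1.18 ± 0.26), MHCIIlow macrophages (-0.93 ± 0.26) and neutrophils (-1.62 ± 0.26). Me1, the cytosolic malic enzyme, had 0 reads in all libraries of tumour MHCIIhi macrophages and of tumour neutrophils. Counts were 2 higher and 1 lower in MHCIIhi macrophages, 1 and 1 in MHCIIlow macrophages, 2 and 0 in monocytes and 2 and 1 in neutrophils, which in MHCIIlow macrophages and neutrophils was near the share of all genes (23.3% and 32.2%).

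Among 7 enzymes that spend NADPH, all tested, Nos2 (5.44 ± 0.87), Cybb (1.30 ± 0.23), the catalytic subunit of the phagocyte oxidase, and Gsr (1.30 ± 0.28), glutathione reductase, rose in tumour MHCIIlow macrophages, and Nqo1 and Txnrd1, which the next list also holds, fell. Cybb also rose in tumour neutrophils (1.03 ± 0.23, adjusted p = 0.00157), the only call of the list there. In tumour MHCIIhi macrophages Txnrd2 rose and Nqo1 and Txnrd1 fell, and in monocytes Nqo1 fell and 0 rose by limma. The median of the list was -0.70 in MHCIIhi macrophages, 0.50 in MHCIIlow macrophages, 0.05 in monocytes and 0.02 in neutrophils. Of 9 targets of NRF2 outside the pathway 5 fell and 0 rose by limma in tumour MHCIIhi macrophages, led by Nqo1 (-4.20 ± 0.37), Txnrd1 (-2.34 ± 0.31) and Gclc (-1.65 ± 0.34), with a median of -1.81, or -1.65 with Me1 at the bound that 3 reads a library allow. In MHCIIlow macrophages 3 fell and Slc7a11 rose (1.08 ± 0.26, adjusted p = 0.00433), while G6pdx and Tkt rose there. In neutrophils Hmox1 rose (1.37 ± 0.34, adjusted p = 0.00467) and Gclc fell (-0.93 ± 0.34, adjusted p = 0.0409).

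Users of PRPP were 6 tested of 7. Umps, which makes uridine monophosphate, rose in tumour MHCIIhi (1.10 ± 0.34) and MHCIIlow macrophages (1.56 ± 0.34, adjusted p = 0.00186), and Nampt, which makes nicotinamide mononucleotide, rose by 0.66 ± 0.19 and 0.69 ± 0.19. Aprt rose in MHCIIlow macrophages (0.85 ± 0.28) and monocytes (0.98 ± 0.28). Qprt had 0 reads in tumour MHCIIlow macrophages and was not tested. In neutrophils limma called 0 of the 6, where Naprt had the smallest adjusted p (1.26 ± 0.50, adjusted p = 0.0591).

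Of 17 glycolytic enzymes, 6 rose and 3 fell in tumour MHCIIhi macrophages, 11 rose and 3 fell in MHCIIlow macrophages, 9 rose in monocytes and 13 rose in neutrophils, beside 19.5%, 23.3%, 9.29% and 32.2% of all genes in that order. Pfkl rose by 1.52 ± 0.16, 2.17 ± 0.16 and 0.93 ± 0.16 in the first 3 of these, and Gpi1 by 1.52 ± 0.19 in neutrophils. Pfkm had at most 1 read in LP neutrophils and Eno2 0 reads in tumour neutrophils. Monocytes thus had 9 calls among glycolytic enzymes beside 0 of 9 members of the pentose phosphate pathway; the difference between these shares was not tested. Of 20 genes of cycling cells 7 rose and 1 fell in tumour MHCIIhi macrophages and 11 rose and 1 fell in MHCIIlow macrophages, while 0 rose and 1 fell in monocytes and 1 rose and 3 fell in neutrophils, beside the same shares of all genes. Their summed level was 104 to 158 RPKM in tumour and 72.7 to 78.7 RPKM in LP MHCIIhi macrophages, 128 to 242 RPKM in tumour and 79.0 to 90.3 RPKM in LP MHCIIlow macrophages, and 34.7 to 35.5 RPKM in tumour against 55.0 to 63.3 RPKM in LP neutrophils. Their part in the levels of the pentose phosphate enzymes was not tested.

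Over the 24 libraries, as a description with no test, the genes whose log2 level followed G6pdx most closely were Cnn2 (Pearson r = 0.971), Wdr1 (0.967) and Actr3 (0.952), all of the actin cytoskeleton. Each was highest in tumour neutrophils, at 584 ± 64.2, 506 ± 41.8 and 752 ± 24.5 RPKM (SD, n = 3), and next in LP neutrophils. Among the members, r with G6pdx was 0.897 for Pgd, 0.886 for Taldo1 and 0.677 for Tkt, and -0.760 for Prps1, -0.591 for Pgls, -0.449 for Prps2 and -0.442 for H6pd, with 0.421 for Rpe and 0.388 for Rpia. The libraries share their scaling and fall by cell type, which these values reflect as well.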

How the data were processed

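For 24 pools of sorted cells, cDNA was made by a variant of SMARTSeq v2, which keeps no strand, and sequenced in pairs of 51 bases. Per the labels and the methods, the authors' alignment used STAR 2.3 on GRCm38 (mm10), their counting featureCounts 1.5 with GENCODE genes, and their normalization edgeR, whose version is not given in the sources used here. Genes with few reads in all populations had been left out. The deposited values are log2 RPKM scaled by library sizes the authors had adjusted. Whole reads were recovered from 100% of 415224 values within 0.001 reads, with 1 gene length each, which gave the depths and the library size ratios.

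The members and gene lists were chosen with earlier results of these data known. All 10 members were named whatever they did, and of each list up to 3 genes with the smallest adjusted p plus those at 0 reads. Of 17301 gene IDs 17190 matched a symbol. limma 3.58.1 (R 4.3.3; trend and moderated tests, 8 group means, one estimate of spread) tested 12878 genes with a mean of at least 1 RPKM in a group in 16 comparisons, and p-values were adjusted by Benjamini-Hochberg over all genes within each comparison, with 0.05 as the threshold. The script was tested on simulated data. A fold change is on the log2 RPKM scale with the offset of the authors, and understates changes of low genes. The 3 libraries of a group carry different donor numbers, and p-values measure the spread between these pools. Promoters came from RefSeq (GRCm38.p6), gene overlaps from the annotation on GRCm38.

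Over 29 pairs of same-numbered libraries within a tissue, deviations from the group means correlated by -0.066 to 0.255 (median 0.017), and the estimated correlation within a block was 0.048. The labels give the number as a donor, so libraries of a tissue with the same number were read as paired by design, with the block as an alternative because the methods name none. Alternatives were pseudocounts of 1 and 0.1, no filter or a filter of 5 RPKM, quantile normalization, median centring, a fit of only the libraries compared, array weights, the pool number as fixed or random block, voom on the recovered reads, leaving out each of the 24 libraries, and, chosen after seeing the data, library sizes as summed reads.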

Additional observations from a re-analysis of the deposited data

Results flagged for a closer look

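7 differences between tumour effects passed the test of the difference itself. The log2 tumour effect of Taldo1 was larger in MHCIIlow than in MHCIIhi macrophages by 1.18. It was smaller in the macrophages together than in neutrophils for G6pdx (-0.69), Pgd (-0.75), Tkt (-0.95) and Taldo1 (-1.29). Against monocytes the macrophages had a larger tumour effect for Tkt (0.71) and a smaller one for Taldo1 (-0.87). Of these, only the difference of Taldo1 between macrophages and neutrophils passed under every alternative tried.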

How the results depend on the processing

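Of the 144 tests of members 53 passed, and 24 of these passed under every alternative. Tumour against LP gave 18 calls over 5 comparisons, 18 to 23 under other settings and 16 to 19 with a library left out. MHCIIlow against MHCIIhi macrophages gave 3 calls, but 1 in a fit of only the libraries compared, 0 with the pool number as a fixed block and 0 with summed reads as library sizes, 2 or 3 under other settings, and 0 to 4 with a library left out. Comparisons with monocytes gave 25, but 16 after quantile normalization and 22 to 31 under other settings, and 22 to 25 with a library left out. Differences of tumour effects gave 7, but 4 after quantile normalization and 5 to 9 under other settings, and 5 to 8 with a library left out. With the fixed block the last 2 counts were 23 and 5, and with a random block all 4 were as in the fit without it (18, 3, 25 and 7). The block changed no call of a member beyond those given with it above. A fixed block could not be fitted for tumour against LP, since numbers are shared only within a tissue. Where the test passed before or after, directions reversed with summed reads for G6pdx (-0.05) and Rpe (-0.81, adjusted p = 0.00368) in LP neutrophils against monocytes and for Tkt (-0.29) in tumour neutrophils, and after quantile normalization for Tkt there (-0.0369). Summed reads rescale whole libraries and quantile normalization also changes levels within them, and which of these holds was not tested. Of 2871 alternative values 2568 kept their direction and side of the threshold, 135 lost a call, 81 gained one and 83 changed sign without passing before or after, such as Rpe between tumour and LP neutrophils with summed reads (-0.02). Depth limits Rpia in all groups and Prps2, H6pd, Pgls and Prps1 in neutrophils, which rest on few reads. Pgls had 62 to 94 reads a library in LP and 38 to 125 in tumour neutrophils. Prps1 had 72 to 293 reads in LP and 24 to 92 in tumour neutrophils.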
